A study of Mus musculus with 36 samples.

Results

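RNA-seq was used to compare BV-2 cells, an immortalized murine microglial line, that received lipopolysaccharide (LPS) together with dimethyl fumarate (DMF) with cells that received LPS alone, both for 4 h. The comparison asks which LPS-driven and stress-response transcripts differed once DMF was present. It held all 17249 genes of the table of these libraries, of the 19613 genes in the tables used, and 6 of the 36 libraries of the series, which form 12 groups of 3. The LPS_DMF cells received LPS from Escherichia coli at 600 ng/mL and DMF at 30 µM, and the LPS cells received LPS at the same dose without DMF. Further groups used here were DMSO (vehicle only), LPS_MMF (LPS with monomethyl fumarate, MMF, at 30 µM), and DMSO, LPS and LPS_DMF after 24 h. The ethanol vehicle group ETOH and the LPS_CBD group, LPS with cannabidiol at 6 µM, both at 4 h, entered only the joint scaling of the 4 h libraries and 1 alternative fit, and ETOH at 24 h only 1 alternative list. All cells carried the wild-type label and were moved to 0.1% serum just before treatment, and all received vehicle at 0.2%. DMF and MMF were dissolved in DMSO, but the labels do not say which vehicle the cells with LPS alone received. BV-2 is a single proliferating line, so the replicates are repeats of the treatment on 1 line and not separate animals, and p-values measure the spread between those repeats, which may be partly technical.

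DMF is an oral drug for multiple sclerosis and MMF is the monoester formed from it by hydrolysis of a methyl ester group. Fumarate esters react with cysteine thiols, including those of Keap1, the adaptor that marks the transcription factor Nrf2 (gene Nfe2l2) for degradation. Stabilised Nrf2 pairs with small Maf proteins on antioxidant response elements, from which Bach1 otherwise represses genes such as Hmox1. LPS is recognised by Tlr4 with Cd14 and Ly96 (MD-2). The receptor signals through Myd88 to NF-kB, which drives early cytokine genes, and through Ticam1 (TRIF) to interferon beta, whose secondary signalling drives interferon-stimulated genes.

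The 6 libraries held 15665783 to 17003612 counted reads, and 1.97 to 2.25% of these came from mitochondrial genes. Values are read counts divided by the size factor of each library, called normalized counts here, and a gene was tested when at least 3 of the 6 libraries reached 10. All 14 microglia and macrophage markers in the table reached 10 in every library, and 10 of them, including Ptprc, Csf1r, Trem2 and Cd68, reached 100. Their summed normalized counts were 40552 to 47543 in LPS and 31609 to 36526 in LPS_DMF, and 4 of the 14 (Ptprc, Csf1r, Spi1 and Cx3cr1) were lower with DMF. Tmem119 and P2ry12, which mark resident microglia, stayed between 17.6 and 41.9 normalized counts. The 4 fibroblast markers summed to at most 3.12 in any library and none of the markers of neurons, oligodendrocytes, endothelium or other cell types was called. Of the neuron list Rbfox3 and Nefl stood at or near 0 and Map2 at 121 to 172, and of the oligodendrocyte list Mog and Mag stood at or near 0 and Mbp at 691 to 987. Replicate 2 was the highest library of both groups in interferon genes. For the list of interferon-stimulated genes the summed normalized counts of LPS replicates 1, 2 and 3 were 28424, 52543 and 35119, and those of LPS_DMF were 12109, 20468 and 11380. Of the 23 genes of this list that were tested, 20 fell with DMF in the main fit. With the replicate number as a block 22 fell, and 16 without LPS replicate 2 and 22 without LPS_DMF replicate 2. The cause of these differences between replicates was not tested. In such bulk samples fewer expressing cells and less RNA per cell cannot be told apart.

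Of 11371 genes tested, 517 were higher and 740 lower in LPS_DMF than in LPS (limma, Benjamini-Hochberg adjusted p below 0.05), which is 4.55% and 6.51% of the genes tested. Fold changes are given on the log2(normalized count + 1) scale, with the standard error (SE) of limma and n = 3 per group throughout. The median log2 fold change over all genes tested was 0.0056. A change of more than 1 log2 unit was called for 122 genes that rose and 287 that fell, so the large changes were mostly falls. The number of calls depended on single libraries. In all, 1257 genes (11.1%) were called, against 831 without LPS replicate 1, 597 without LPS replicate 3 and 603 without LPS_DMF replicate 3.

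**Figure D1:**
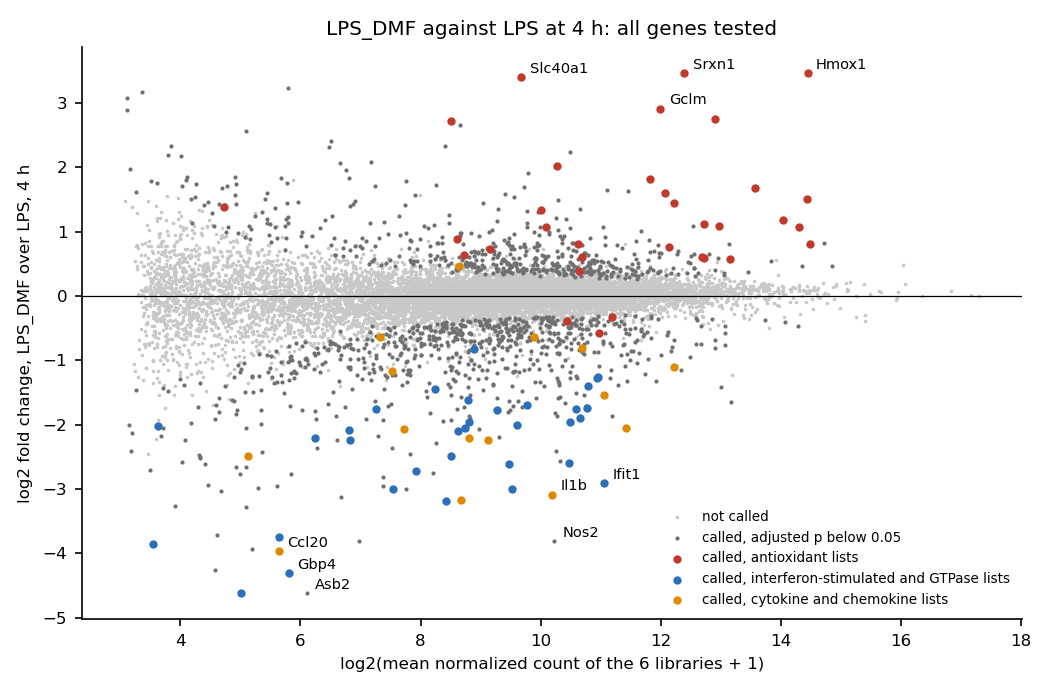
Each point is 1 of the 11371 genes tested, with the log2 of its mean normalized count over the 6 libraries plus 1 on the horizontal axis and its log2 fold change in LPS_DMF over LPS at 4 h on the vertical axis. Grey marks genes without a call and dark grey called genes, with called members of the antioxidant lists in red, of the interferon-stimulated and GTPase lists in blue and of the cytokine and chemokine lists in orange. Hmox1 and Srxn1 lie at the top at 3.46 and 3.46, and Asb2 lies at the bottom at -4.62.

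Named first are the genes with the largest changes among called genes whose libraries did not overlap and whose mean reached 50 normalized counts in the higher group. The largest rise belonged to Hmox1, heme oxygenase 1, which breaks heme down to biliverdin, iron and carbon monoxide. Hmox1 (ENSMUSG00000005413, chr8:75820249-75827217, GRCm39) measured 3313, 4408 and 3382 normalized counts in the 3 LPS libraries and 33664, 43264 and 45645 in the 3 LPS_DMF libraries. The groups lay far apart, and Hmox1 was 11.0-fold higher with DMF (log2 fold change 3.46, SE 0.15, limma adjusted p = 4.2e-06). Srxn1 (chr2:151947436-151953296), sulfiredoxin, which repairs overoxidised peroxiredoxins, went from 964, 897 and 832 to 9631, 10272 and 9666. This gene had the smallest adjusted p of all genes tested (log2 fold change 3.46, SE 0.08, limma adjusted p = 1.21e-07), a rise of 11.0-fold. Slc40a1, ferroportin, the only known iron exporter of mammalian cells, rose from 195, 126 and 112 to 1715, 1359 and 1402 (log2 fold change 3.40, SE 0.20, limma adjusted p = 2.61e-05). Slc7a11, the cystine carrier of system xc-, measured 2214, 1959 and 1788 with LPS and 11855, 14353 and 13989 with DMF, a 6.74-fold rise, and Gclm, the modifier subunit of the enzyme that starts glutathione synthesis, rose 7.52-fold. Of the 10 largest rises the others were Vegfd, a lymphatic growth factor (log2 fold change 3.23), Osgin1 (2.71), Gpat3, a glycerol-3-phosphate acyltransferase (2.66), Aox1, aldehyde oxidase (2.57), and Rnf183 (2.40). Aox1 and Vegfd were low in LPS, with at most 19.5 and 13.6 normalized counts, and their fold changes depend on the value added before the log. With a pseudocount of 0.5 they were 2.65 and 3.30, and with DESeq2 2.48 and 3.24.

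The 10 largest falls held interferon-induced and LPS-induced genes. Asb2 (chr12:103287401-103322260), a substrate adaptor of a ubiquitin ligase, fell from 129, 143 and 120.4 to 5.20, 7.42 and 1.93 (log2 fold change -4.62, SE 0.38, limma adjusted p = 0.000188). Nos2 (chr11:78811613-78851080), inducible nitric oxide synthase, measured 988, 4154 and 1351 in LPS and 54.1, 523 and 69.4 in LPS_DMF. Replicate 2 was the highest library of each group for Nos2, and the fall was 14.0-fold (log2 fold change -3.81, SE 0.80, limma adjusted p = 0.0159). The groups did not overlap, which the choice of these genes required. The Nos2 call was lost without LPS_DMF replicate 1 (log2 fold change -3.21, limma adjusted p = 0.0592) and without LPS_DMF replicate 3 (-3.38, limma adjusted p = 0.0735). It was kept with the replicate number as a block (limma adjusted p = 7.22e-05). Ccl20, a chemokine for Ccr6-bearing cells, fell from 107, 89.8 and 82.2 to 4.16, 7.42 and 3.85 (log2 fold change -3.97, SE 0.30, limma adjusted p = 0.000122). The remaining falls were the interferon-inducible GTPases Gm5431 (log2 fold change -4.61), Gbp4 (-4.31), Gbp5 (-3.74) and Mx1 (-3.20), together with Ifit1bl1 (-3.81), Slfn1 (-3.28) and the nucleoside carrier Slc28a2b (-3.93). Ifit, Gbp and Slc28a2 genes have close paralogs, among which reads of shared sequence may have been lost or split.

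**Figure D2:**
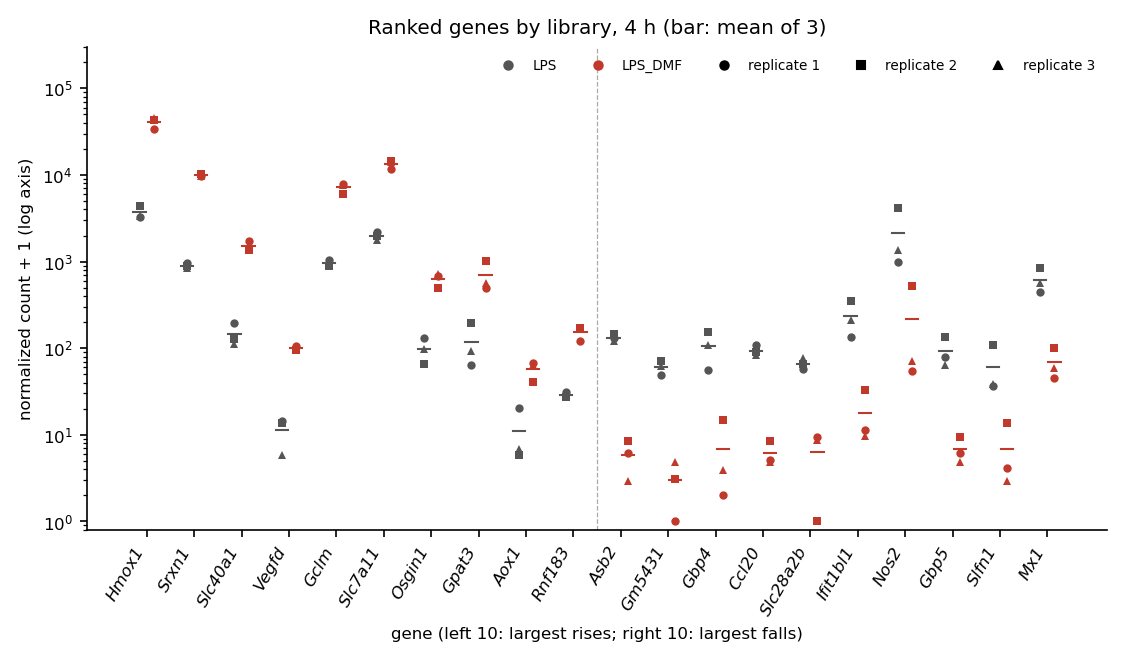
Normalized counts plus 1 on a log axis for the 10 genes with the largest rise (left) and the 10 with the largest fall (right) in LPS (grey) and LPS_DMF (red) at 4 h, with a symbol for each replicate and a bar at the mean of 3. No gene overlaps between the groups, which the choice of these genes required, and replicate 2 (squares) is the highest in both groups for Nos2, Gbp4 and Ifit1bl1.

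Lists of genes by function show how far these changes extended. In the Nrf2 system, 6 of 10 genes rose and 1 fell, with a median log2 fold change of 0.57. Nfe2l2 itself, which encodes Nrf2, was the gene that fell, from 2788, 2464 and 2561 to 2198, 2010.3 and 2021 (log2 fold change -0.33, SE 0.08, limma adjusted p = 0.0389). Its inhibitor Keap1 was not called (1338, 1717 and 1481 against 1552, 2039 and 1747, limma adjusted p = 0.301). Bach1, the repressor that competes with Nrf2, rose from 489.8, 688 and 565 to 1198, 1655 and 1539 (log2 fold change 1.33, SE 0.15, limma adjusted p = 0.000917). Sqstm1 (p62), an autophagy receptor that binds Keap1, rose with log2 fold change 1.18. The small Maf genes Mafg (0.76), Maff (0.88) and Mafk (0.38) rose too, and Osgin1 rose most. The calls of Nfe2l2 and Mafk were lost without LPS replicate 1, LPS replicate 3, LPS_DMF replicate 2 or LPS_DMF replicate 3, and that of Maff without replicate 1 or 3 of either group, so that 4 of the 10 were called without LPS replicate 1, LPS replicate 3 or LPS_DMF replicate 3.

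In heme and iron handling, 6 of 14 genes rose and none fell (median 0.55). Besides Hmox1 and Slc40a1, these were Blvrb, biliverdin reductase B, at 484, 448 and 532 in LPS and 2134, 1794 and 1993 in LPS_DMF (log2 fold change 2.01, SE 0.10, limma adjusted p = 1.43e-05), the heme carrier Slc48a1 (log2 fold change 1.82), ferritin light chain Ftl1 (0.81) and ferrochelatase Fech (0.63). Ferritin heavy chain Fth1 missed the threshold at 0.48 (limma adjusted p = 0.0597). Its libraries did not overlap, which also held for 30.1% of all genes tested. Fth1 was called with the replicate number as a block (limma adjusted p = 0.0119). In that fit 8 of the 14 rose, and without LPS_DMF replicate 1 there was 1 fall. The iron importer gene Tfrc gave -0.03 (limma adjusted p = 0.948).

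In glutathione metabolism, 8 of 15 tested genes rose and none fell (median 0.73). With the replicate number as a block, and likewise without LPS_DMF replicate 2, 9 rose and 1 fell. Gclm went from 1052, 878 and 926 to 7933, 6045 and 7616 (log2 fold change 2.91, SE 0.12, limma adjusted p = 4.2e-06), while its catalytic partner Gclc went from 2277, 1894 and 2222 to 6261, 6601 and 6425 (log2 fold change 1.60, SE 0.09, limma adjusted p = 2.61e-05). Both subunits of glutamate-cysteine ligase therefore rose without overlap between groups. Gsr, glutathione reductase (log2 fold change 1.44), Gss, glutathione synthetase (0.73), Slc3a2, the heavy chain of system xc- (1.09), and the export pumps Abcc1 (1.12) and Abcc4 (0.61) also rose. The glutathione peroxidase Gpx4 measured 1402, 1877 and 1624 against 1727, 1628 and 1642 and was not called (limma adjusted p = 0.879).

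In the thioredoxin system, 5 of 12 genes rose and 1 fell (median 0.30). Txnrd1, cytosolic thioredoxin reductase, rose from 6332, 5407 and 5653 to 17542, 19123 and 19123 (log2 fold change 1.68, SE 0.09, limma adjusted p = 1.99e-05), and Prdx1, a peroxiredoxin, from 11538, 12168 and 10873 to 36711, 31599 and 29678 (log2 fold change 1.50, SE 0.10, limma adjusted p = 7.29e-05). Txnrd2 and Prdx3, the mitochondrial counterparts, gave -0.21 and 0.19 and were not called (limma adjusted p = 0.263 and 0.179). Txnip, which binds and inhibits thioredoxin, was the gene that fell (-0.57). Among enzymes that supply NADPH or reduce quinones, 5 of 12 rose and 1 fell (median 0.31). Pgd (1.07), Taldo1 (0.61) and G6pdx (0.58) of the pentose phosphate pathway rose, as did malic enzyme, Me1 (1.07), and Aldh3b1, an aldehyde dehydrogenase, fell (-0.38). The Aldh3b1 call was lost without replicate 3 of either group, and none of the list then fell. With the replicate number as a block, 2 of the list fell. The quinone reductase Nqo1, a frequently used Nrf2 readout, was near the lower limit of the test at 19.5, 9.76 and 11.7 in LPS and 53.1, 26.5 and 32.8 in LPS_DMF (log2 fold change 1.39, SE 0.36, limma adjusted p = 0.0375). Its call was lost without LPS replicate 2, LPS replicate 3, LPS_DMF replicate 1 or LPS_DMF replicate 3.

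The core antioxidant response element, TGACNNNGC (N is any base), was searched on both strands of the 250 bases before the start of the canonical transcript of each gene. It was found in 10.8% of the 11366 promoters of tested genes, in 14.1% of those of genes that rose and in 9.09% of those of genes that fell. Of the 30 called genes that rose in the 5 antioxidant lists, 6 held a match, and the 3 with the largest rise are shown because these letters are those that Nrf2 and small Maf dimers bind. Each line gives 29 bases read 5′ to 3′ on the strand that carries the match, in capitals (GRCm39, GENCODE annotation).
Gclm, chr3:122039062-122039090, minus strand: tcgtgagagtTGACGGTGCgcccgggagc
Txnrd1, chr10:82694938-82694966, minus strand: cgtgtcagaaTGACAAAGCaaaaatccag
Prdx1, chr4:116542653-116542681, minus strand: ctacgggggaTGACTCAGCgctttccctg
The matches began 54, 65 and 78 bases before the transcript starts of Gclm, Txnrd1 and Prdx1, of which Gclm rose 7.52-fold, Txnrd1 3.21-fold and Prdx1 2.83-fold. Of each 250-base promoter, 125, 220 and 250 bases lie in annotated exons of these or neighbouring transcripts. Hmox1 and Srxn1 held no match in this window, which says nothing of sequence further away.

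Of 15 tested genes tied to the transcription factor Atf4, 8 rose and none fell (median 0.51). Trib3, a pseudokinase, rose from 333, 421 and 336 to 992, 1577 and 1612 (log2 fold change 1.91, SE 0.19, limma adjusted p = 0.000404), Chac1, which degrades glutathione, rose with log2 fold change 1.72, and Atf4 itself rose with 0.81. Ddit3 (CHOP) measured 217, 219 and 182 against 215, 239 and 269 and was not called (limma adjusted p = 0.364). Of 12 tested heat shock genes, 5 rose and none fell (median 0.36), with Hspb1, a small heat shock protein, rising most (1.79) and Hsph1 (0.65) and Hspa8 (0.47) less. The Hspb1 call was lost without LPS_DMF replicate 3, and that of Hspa8 without LPS replicate 3 or LPS_DMF replicate 2 or 3. The count of rises was 1 without LPS_DMF replicate 3 and 2 without LPS replicate 3. The stress-inducible Hspa1a and Hspa1b were too low to be tested. The zinc exporter Slc30a1 rose from 702, 617 and 652 to 1314, 1297 and 1536 (log2 fold change 1.07, SE 0.10, limma adjusted p = 0.000337), whereas the metallothionein Mt1 was not called (0.32, limma adjusted p = 0.176). Of 12 p53 and apoptosis genes, Pmaip1 rose (0.43) and Gadd45b fell (-0.75), and the median was 0.02. Neither was called without LPS_DMF replicate 3, and Pmaip1 was not called without LPS replicate 1 or 3.

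Of 15 tested genes of LPS sensing, 6 fell and 1 rose, with a median of -0.39, which was -0.02 without LPS replicate 1. Tlr4, the LPS receptor, was not called at 548, 488 and 515 in LPS and 559.7, 581 and 619.6 in LPS_DMF (limma adjusted p = 0.291), and its co-receptor Cd14 fell with log2 fold change -0.46. Tlr2, which senses bacterial lipoproteins, fell from 3866, 3881 and 4049 to 1669, 1760.1 and 1338 (log2 fold change -1.32, SE 0.11, limma adjusted p = 0.000194), and Tlr7, an endosomal RNA receptor, fell with -1.19. Without LPS replicate 3, and likewise without LPS_DMF replicate 3, 3 of the 15 fell, and 4 fell and none rose without LPS_DMF replicate 1. The call of Cd14 was lost without any single library but LPS_DMF replicate 2.

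In the NF-kB list, 7 of 18 genes fell and 1 rose, with a median of -0.41, which was -0.26 without LPS replicate 2. The 5 genes that encode the DNA-binding subunits, Rela, Relb, Rel, Nfkb1 and Nfkb2, were not called, with log2 fold changes from -0.41 (Nfkb1) to 0.13 (Relb). With the replicate number as a block, Nfkb1 was called (limma adjusted p = 0.0124). The genes that fell were Bcl3, Ikbke, Nfkbia, Nfkbid, Nfkbie, Tnfaip3 and Tnip1, mostly inhibitors and feedback regulators of the pathway. Ikbke, a kinase that phosphorylates Irf3, measured 2015, 1895 and 1908 in LPS and 634, 589.5 and 398 in LPS_DMF (log2 fold change -1.87, SE 0.16, limma adjusted p = 0.000201). Nfkbia, the inhibitor IkB alpha, fell with log2 fold change -0.89, Tnfaip3 (A20), a deubiquitinase that ends signalling, with -1.02, and Tnip1, its partner, with -0.99. Ikbkg (NEMO), the scaffold of the IkB kinase, was the gene that rose (0.91). The annotated span of Ikbkg (chrX:73436896-73497460) contains that of G6pdx (chrX:73453089-73472800), which also rose, and reads of overlapping genes cannot be fully told apart. There were 4 falls without LPS replicate 2, and 3 without any of LPS replicate 3, LPS_DMF replicate 1 and LPS_DMF replicate 3. The call of Tnfaip3 was lost without any single library but LPS_DMF replicate 2. Those of Nfkbia and Bcl3 were lost without LPS replicate 2 or 3 or LPS_DMF replicate 1 or 3. That of Nfkbie was lost without LPS replicate 3 or LPS_DMF replicate 1 or 3. A block on the replicate number kept these calls, with limma adjusted p from 0.000266 (Bcl3) to 0.00156 (Tnfaip3). In that fit 10 of the 18 genes fell. Among immediate early genes, 2 of 17 rose (Fosl1, 1.25, and Dusp5, 0.90) and 2 fell, with a median of -0.11. That median lay between -0.24 and 0.09 with any single library left out, and was above 0 without LPS replicate 2. The Dusp5 call was lost without replicate 3 of either group. With the replicate number as a block, 2 rose and 5 fell. Fos, a subunit of AP-1, fell from 455, 537 and 531 to 109, 108 and 93.5 (log2 fold change -2.28, SE 0.13, limma adjusted p = 2.45e-05), and the phosphatase gene Dusp6 fell with -1.21, while Jun, the AP-1 partner of Fos, was not called (-0.19, limma adjusted p = 0.218).

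Of 14 tested cytokine genes, 7 fell and 1 rose (median -1.10), and 5 fell and none rose without LPS replicate 3 or LPS_DMF replicate 3. With the replicate number as a block, 11 fell, the others being Il15, Il18, Csf3 and Il1rn. Tnf measured 7002, 6114 and 6419 in LPS and 3700.3, 3062 and 2445 in LPS_DMF (log2 fold change -1.10, SE 0.14, limma adjusted p = 0.0014). Il1a fell from 716, 1323 and 685 to 149.8, 372 and 108 (log2 fold change -2.24, SE 0.42, limma adjusted p = 0.00888), and Il1b from 1118, 3577 and 1315 to 141, 767 and 77.1 (log2 fold change -3.09, SE 0.74, limma adjusted p = 0.0281). For both interleukin-1 genes replicate 2 was the highest library of its group, and the groups did not overlap. The Il1b call was lost without LPS replicate 2, LPS replicate 3, LPS_DMF replicate 1 or LPS_DMF replicate 3. It was kept with the replicate number as a block (limma adjusted p = 0.000382). Il27 (-2.50), Lif (-1.17), Il23a (-0.64) and Csf1 (-0.64) fell as well, and Osm, oncostatin M, rose (0.47). The calls of Il23a and Csf1 were lost without LPS replicate 3 and LPS_DMF replicate 3, in that order, and that of Osm without LPS replicate 2 or 3 or LPS_DMF replicate 2 or 3. Il6 was low, with 23.4, 54.7 and 20.6 against 25.0, 7.42 and 2.89, its groups overlapped, and it was called without LPS_DMF replicate 1 only.

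Of 14 tested genes of the chemokine list, which also holds the receptor gene Ccrl2, 7 fell and none rose (median -1.35). Ccl2, which recruits monocytes, went from 5666, 3125 and 4421 to 1556, 867 and 816 (log2 fold change -2.05, SE 0.27, limma adjusted p = 0.00157), and Ccl7, a further monocyte attractant, from 1102, 369 and 755 to 101, 73.2 and 54.0 (log2 fold change -3.18, SE 0.37, limma adjusted p = 0.000903). Cxcl10, an interferon-inducible T cell attractant, fell from 478, 1069 and 672 to 133, 186 and 137 (log2 fold change -2.21, SE 0.26, limma adjusted p = 0.00103). Ccl9 (-1.54), Ccl4 (-0.81) and Ccrl2 (-2.07) fell too. The neutrophil attractants gave other values. Cxcl2 measured 7988, 8968 and 6702 against 8783, 10597 and 5459 and Cxcl3 1195, 2280.1 and 967 against 1483, 2489.6 and 787. Neither was called (limma adjusted p = 0.96 and 0.964), and the groups overlapped for both.

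Among 13 inflammatory enzymes and effectors, 3 fell (Nos2, Lcn2 and Mmp9) and 1 rose (median -0.27), and 5 fell with the replicate number as a block. Lcn2, the siderophore-binding lipocalin, went from 207, 532 and 186 to 53.1, 81.6 and 32.8 (log2 fold change -2.37, SE 0.42, limma adjusted p = 0.0073). The gene that rose was Ptgs2, cyclooxygenase 2, at 18053, 23543 and 16763 in LPS and 30318, 42945 and 29989 in LPS_DMF (log2 fold change 0.82, SE 0.17, limma adjusted p = 0.0152). Nos2 and Ptgs2, both LPS-inducible, thus moved in opposite directions. The Ptgs2 call was lost without LPS replicate 1 or 3. Acod1, which makes itaconate, was not called (-0.52, limma adjusted p = 0.214, and 0.0148 with the replicate number as a block). Of 14 tested surface molecules of activation, 7 fell and 1 rose (median -0.80). Cd69 fell from 347, 415 and 381 to 36.4, 60.4 and 45.3 (log2 fold change -3.01, SE 0.19, limma adjusted p = 4.65e-05), and Cd40, a costimulatory receptor, from 932, 1525 and 1057 to 554, 563 and 435 (log2 fold change -1.15, SE 0.18, limma adjusted p = 0.00392). Hcar2, a receptor for which MMF is a known ligand, fell from 443, 806 and 546 to 128, 272 and 145 (log2 fold change -1.75, SE 0.29, limma adjusted p = 0.00555). Cd80 and Cd86, the ligands of Cd28, were not called (log2 fold changes -0.08 and -0.24, limma adjusted p = 0.713 and 0.527). Il4ra rose with 0.66, a call lost without LPS replicate 1, LPS replicate 3 or LPS_DMF replicate 3.

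All 13 tested interferon-inducible GTPases fell, with no overlap between groups in any of them, against 30.1% of all genes tested without overlap. Their log2 fold changes ran from -4.61 (Gm5431) to -1.62 (Irgm2), with a median of -2.23. Gbp2, a guanylate-binding protein, measured 280.5, 610.0 and 362 in LPS and 57.2, 113 and 31.8 in LPS_DMF (log2 fold change -2.72, SE 0.42, limma adjusted p = 0.00387). Irgm1, a regulator of this GTPase family, fell from 1911, 2719 and 2205 to 571, 722 and 466 (log2 fold change -1.96, SE 0.17, limma adjusted p = 0.000237). With any single library left out, 11 to 13 of the 13 were called.

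Of 23 tested interferon-stimulated genes, 20 fell and none rose (median -1.78), and 15 to 22 fell when any single library was left out. Ifit1, which binds viral RNA caps, went from 2630.3, 5155 and 3469 to 404, 638 and 433 (log2 fold change -2.90, SE 0.24, limma adjusted p = 0.000201), a 7.49-fold fall. Mx1, a GTPase against influenza viruses, fell from 445, 845 and 566 to 44.7, 101 and 58.8 (log2 fold change -3.20, SE 0.31, limma adjusted p = 0.000375). Isg15, a ubiquitin-like modifier, fell from 428, 1077 and 620.5 to 128, 271 and 139.7 (log2 fold change -1.95, SE 0.35, limma adjusted p = 0.00805). In each of these genes replicate 2 was the highest library of both groups, and LPS_DMF replicate 2 still lay below the lowest LPS library. The genes without a call were Isg20 (-1.31), Oas1a (-0.91) and Bst2 (-0.29), whose groups overlapped. With the replicate number as a block, Isg20 and Oas1a were called (limma adjusted p = 0.00214 and 0.00068). Among 18 tested genes of interferon signalling, 10 fell and none rose (median -0.79), and 6 fell without LPS_DMF replicate 3. Usp18, which shuts off the type I receptor, fell from 1614, 2793 and 2110.0 to 320.4, 527 and 266 (log2 fold change -2.57, SE 0.26, limma adjusted p = 0.000473). The transcription factor genes Stat2 (-1.15) and Irf9 (-0.64) fell, and so did Socs3 (-1.59) and Irf5 (-1.02). The Irf9 call was lost without any single library but LPS_DMF replicate 2, that of Stat2 without LPS_DMF replicate 1 or 3, and that of Irf5 without LPS_DMF replicate 3. Irf3 (-0.05) and the receptor chain Ifnar1 (-0.26) were not called, and Ifnb1 was too low to be tested, with means of 4.23 normalized counts in LPS and 1.34 in LPS_DMF.

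The core of the interferon-stimulated response element, GAAA followed after any 2 bases by GAAA, was searched in the same way. It was found in 3.04% of promoters of tested genes, in 7.19% of those of genes that fell and in 2.32% of those of genes that rose. In the interferon-stimulated list 10 of 23 promoters held it, and in the GTPase list 4 of 13. Of 33 called genes of both lists 13 held a match, and those with the largest falls, Tgtp2 and Ifit3b, are shown because these letters are those bound by interferon regulatory factors. Each line gives 30 bases read on the strand that carries the match, in capitals.
Tgtp2, chr11:48955090-48955119, minus strand: tccaggaatcGAAACCGAAAcctactctga
Ifit3b, chr19:34585159-34585188, minus strand: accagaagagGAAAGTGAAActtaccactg
Ifit3b, chr19:34585193-34585222, minus strand: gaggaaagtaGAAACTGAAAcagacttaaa
Ifit3b carried 2 matches in a promoter of 250 bases without annotated exons (chr19:34585078-34585327, plus strand, GRCm39). It is printed on the strand of the gene, so that the matches read as their reverse complement, in capitals.
Ifit3b promoter: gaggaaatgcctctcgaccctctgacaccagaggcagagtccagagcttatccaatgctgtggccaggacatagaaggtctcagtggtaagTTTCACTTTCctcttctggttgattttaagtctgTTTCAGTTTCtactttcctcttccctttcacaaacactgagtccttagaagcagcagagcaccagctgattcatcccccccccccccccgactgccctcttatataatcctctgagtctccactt
Ifit3b fell from 185, 549 and 257 to 22.9, 54.1 and 37.6 (log2 fold change -3.01, SE 0.41, limma adjusted p = 0.0019), and it lies beside its near-identical copy Ifit3, which fell from 749, 2036 and 1123 to 114, 248 and 115. Tgtp2, an interferon-inducible GTPase with a close copy, Tgtp1, measured 16.6, 18.5 and 26.4 against 0, 2.12 and 0. Reads shared between such copies make the split of counts between them uncertain.

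None of 15 tested sterol synthesis genes was called by limma or edgeR (median 0.02). DESeq2 called 1, as did limma with a replicate block, and 1 had an unadjusted p below 0.05 in limma. Of 19 cell division genes, limma and edgeR called 1, Ccnd1, cyclin D1, and DESeq2 called 1 lower and 2 higher. Ccnd1 fell from 7980.4, 6930.1 and 7750.1 to 3689.9, 4116 and 3850.5 (log2 fold change -0.96, SE 0.09, limma adjusted p = 0.000302), and the median of the list was 0.01. Of 12 genes of LXR targets and lipid droplets, Apoe rose (0.51) and Nr1h3 (-0.67) and Abcg1 (-0.49) fell, and none of the 3 was called without LPS replicate 1, LPS replicate 3 or LPS_DMF replicate 3. Of 13 tested antigen presentation genes, 4 fell, the peptide transporter genes Tap1 (-0.98) and Tap2 (-0.52), Psmb10 of the immunoproteasome (-0.78) and the transactivator Nlrc5 (-0.82), and 2 fell without LPS_DMF replicate 3. The Tap1 call was lost without LPS_DMF replicate 3, and that of Tap2 without any single library but LPS replicate 1. The median of -0.32 was -0.17 without LPS replicate 2. The class I heavy chains H2-K1 (0.07) and H2-D1 (-0.03) and their light chain B2m (-0.05) were not called.

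**Figure D3:**
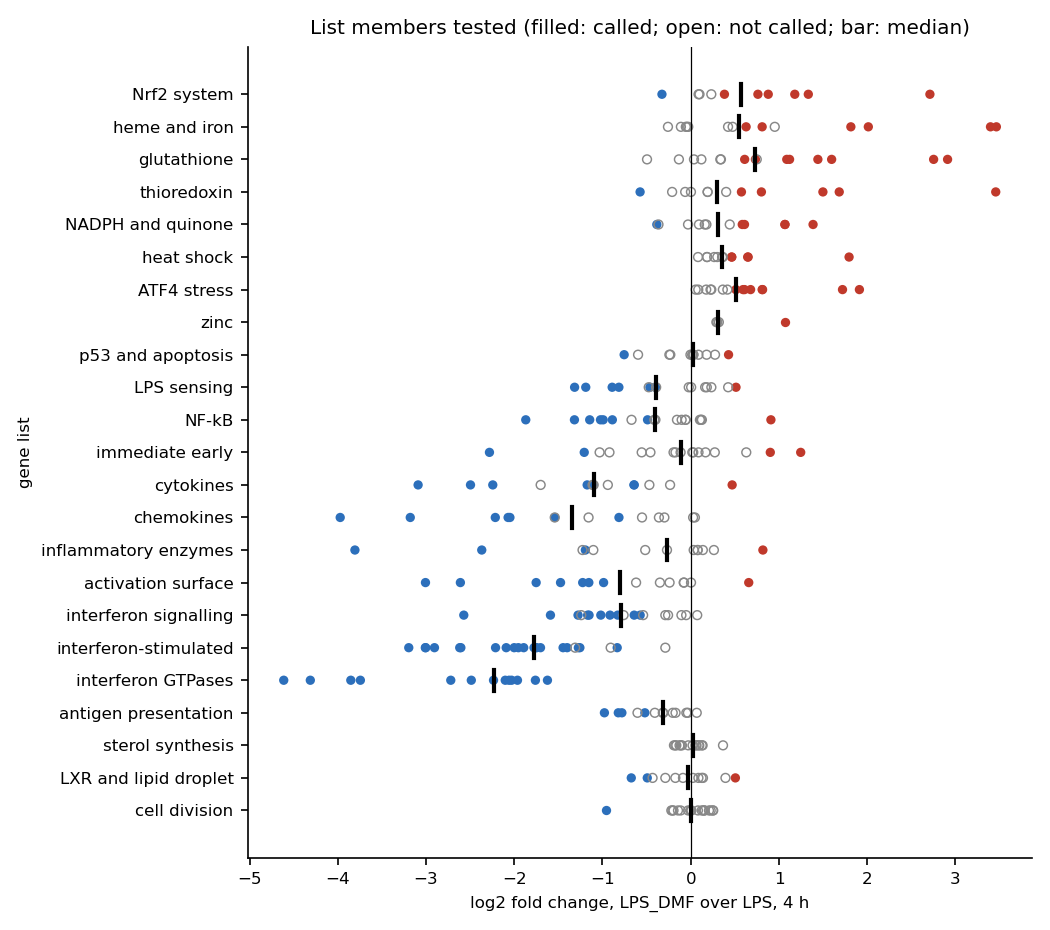
Log2 fold change in LPS_DMF over LPS at 4 h (horizontal axis) of every tested member of the 23 gene lists (rows), filled where called (red higher, blue lower), open where not called, with a black bar at the median. Medians run from -2.23 in the interferon GTPases to 0.73 in the glutathione list, and the sterol synthesis and cell division medians lie at 0.02 and 0.01.

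LPS_DMF differed from DMSO in 2690 of 11449 genes tested (23.5%), 1310 higher (11.4%) and 1380 lower (12.1%), and LPS alone differed from DMSO in 880 genes upward (7.7%) and 729 downward (6.38%) of 11424. The former count was 1774 without DMSO replicate 5, 1387 without DMSO replicate 6 and 1743 without LPS_DMF replicate 3. These comparisons share libraries with that of LPS_DMF against LPS, so the values are given side by side only. On a joint scale, with size factors set over all 18 libraries of the 4 h groups used here, Ifit1 had 450.2 ± 262 (mean ± SD, n = 3) in DMSO, 3877 ± 1331 in LPS and 508 ± 130.4 in LPS_DMF. Ifit1 was not called between LPS_DMF and DMSO (log2 fold change 0.33, 95% interval -0.52 to 1.19, limma adjusted p = 0.555). Over the 23 tested interferon-stimulated genes the median log2 fold change was 1.68 in LPS over DMSO and 0.01 in LPS_DMF over DMSO, with 16 and 2 called higher. Tnf and Il1a were above DMSO in LPS_DMF (log2 fold changes 1.30 and 3.54, limma adjusted p = 0.000258 and 0.000648). Ptgs2 rose from 3322 ± 788 in DMSO to 20104 ± 3734 in LPS and 35573 ± 7515 in LPS_DMF. Hmox1, in contrast, was 3383 ± 222 in DMSO and 3825 ± 636 in LPS, and reached 42237 ± 6469 in LPS_DMF.

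DMF carries a methyl ester that MMF lacks, and both were used at the same dose and time, so that their LPS-treated cells could be compared directly. This was the only pair of compounds compared, with p-values adjusted over all genes. LPS_DMF differed from LPS_MMF in 949 of 11377 genes tested (8.34%), 383 higher (3.37%) and 566 lower (4.97%). LPS_MMF differed from LPS in 14 of 11431 genes, 9 higher (0.0787%) and 5 lower (0.0437%). For Hmox1 the joint scale gave 8151 ± 929 in LPS_MMF and 42237 ± 6469 in LPS_DMF, a difference of 2.37 on the log2 scale (95% interval 2.08 to 2.65, limma adjusted p = 1.88e-05). MMF also raised Hmox1 over LPS (log2 fold change 1.10, limma adjusted p = 0.0128), as well as Srxn1 (1.11), Slc7a11 (1.21), Gclm (0.81), Slc48a1 (0.75) and Txnrd1 (0.70). These 6 genes were all higher with DMF than with MMF. Across the antioxidant lists, DMF exceeded MMF in 5 of 10 genes of the Nrf2 system and 6 of 14 of heme and iron. The count was 8 of 15 for glutathione and 5 of 12 for NADPH and quinone enzymes. In the thioredoxin list 5 of 12 were higher and 1 was lower with DMF.

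In the other direction, 17 of 23 interferon-stimulated genes, 11 of 12 GTPases and 8 of 14 surface molecules were lower with DMF than with MMF. The same held for 7 of 13 genes of the chemokine list and 7 of 14 cytokines, and 1 cytokine was higher with DMF. None of the 83 tested members of these 5 lists was called by limma in LPS_MMF against LPS, while 12 had an unadjusted p below 0.05. Nos2 measured 2139 ± 1024 in LPS_MMF and 222 ± 274 in LPS_DMF, a log2 difference of -3.91 (95% interval -5.47 to -2.36, limma adjusted p = 0.00899). For Ccl2 the joint-scale means were 4551 ± 1312 in LPS, 2514 ± 687 in LPS_MMF and 1117 ± 431 in LPS_DMF. Its MMF level lay between the others, but the log2 fold change of LPS_MMF over LPS of -0.85 was not called (95% interval -1.35 to -0.35, limma adjusted p = 0.418). Other genes did not differ detectably between the compounds. Nfe2l2 gave 0.10 (95% interval -0.10 to 0.30), Cxcl2 -0.08 (-0.53 to 0.38) and Abcg1 -0.04 (-0.27 to 0.19). The count of 949 genes was 539, 452 and 390 without LPS_MMF replicates 1, 2 and 3, and 310 without LPS_DMF replicate 3.

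**Figure D4:**
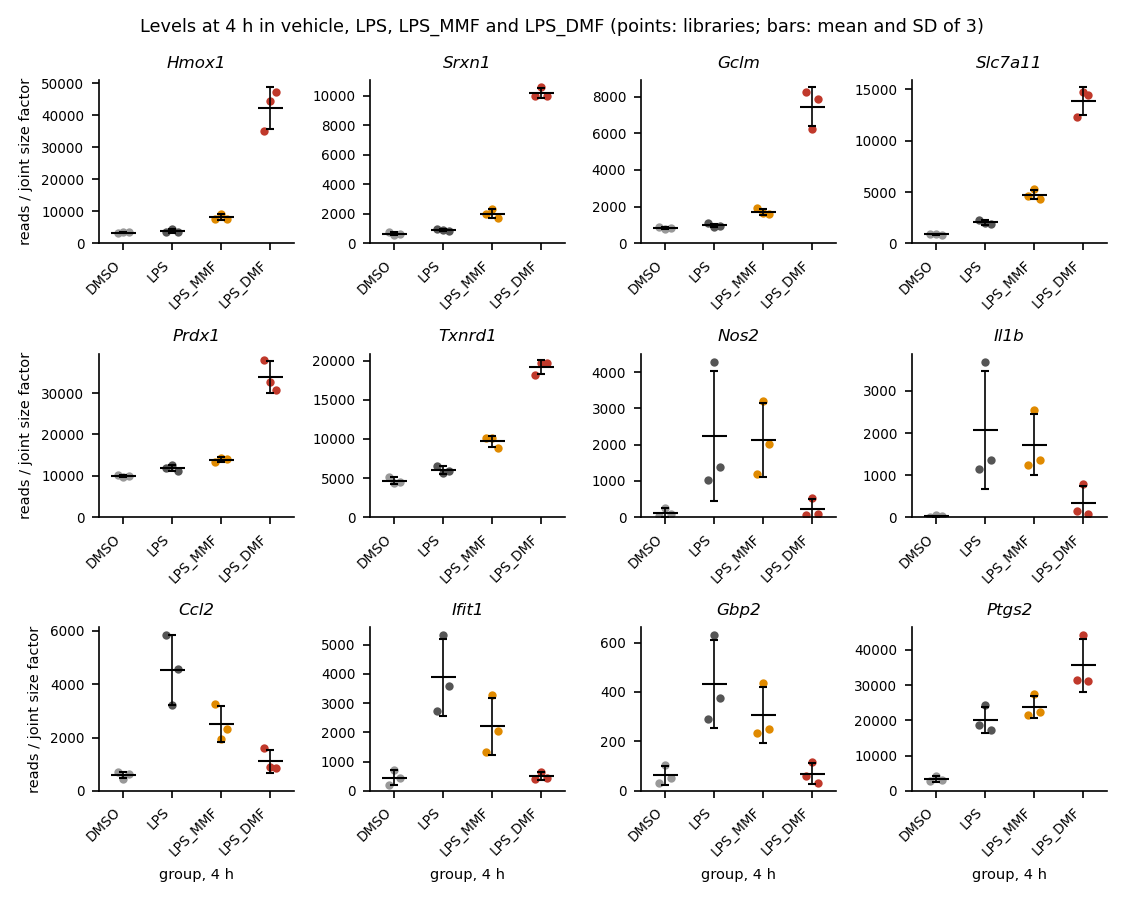
Read counts over size factors set jointly for the 4 h libraries (vertical axes, from 0) for 12 genes in DMSO, LPS, LPS_MMF and LPS_DMF at 4 h, with 1 point per library and bars at the mean and SD of 3. Srxn1 averages 2012 in LPS_MMF and 10191 in LPS_DMF, and Gbp2 averages 432 in LPS and 69.7 in LPS_DMF, near the 62.4 of DMSO.

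A list of LPS-raised genes was also taken from the 24 h libraries, none of which enters the 4 h comparison. Of 322 genes more than 1 log2 unit higher in LPS than in DMSO at 24 h (limma), 298 were tested at 4 h. Of these, 158 (53%) fell with DMF at 4 h and 10 (3.36%) rose, against 6.51% and 4.55% of all genes tested. Their median log2 fold change with DMF at 4 h was -0.91. Of 145 tested genes that LPS lowered at 24 h by more than 1 log2 unit, 3 (2.07%) fell with DMF at 4 h and 8 (5.52%) rose, and their median was 0.02.

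At 24 h, in separate libraries, LPS_DMF differed from LPS in 2926 of 11670 genes (25.1%), 1390 higher (11.9%) and 1536 lower (13.2%). Blocking on the replicate number gave 4566 genes at 24 h, and 1618 were called without LPS replicate 3, 1766 without LPS_DMF replicate 2 and 1352 without LPS_DMF replicate 3 of the 24 h groups. Of the 507 genes that rose at 4 h and were tested at 24 h, 189 (37.3%) were higher and 27 (5.33%) lower at 24 h. Of the 734 that fell at 4 h, 119 (16.2%) were lower and 102 (13.9%) higher, both near the shares of all genes, and their median log2 fold change at 24 h was -0.01.

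The difference of the DMF effect between the times was tested directly as an interaction and was called for 1954 of 11909 genes (16.4%), 984 with the 24 h value higher (8.26%) and 970 lower (8.15%). Hmox1 had a log2 fold change of 3.46 at 4 h and 0.17 at 24 h (limma adjusted p = 0.475 at 24 h), a difference of -3.31 when fitted over the 12 libraries together (SE 0.25, limma adjusted p = 3.59e-06). Slc7a11 and Srxn1 were still higher at 24 h (1.54 and 1.18, limma adjusted p = 0.000441 and 0.000476), by less than at 4 h. Trib3 and Sqstm1 gave like values at both times, 1.91 and 1.84 for Trib3 and 1.18 and 1.15 for Sqstm1, and their interactions were not called (limma adjusted p = 0.835 and 0.913). All 13 GTPases and 22 of 23 interferon-stimulated genes had a called interaction toward a weaker fall or a rise at 24 h. The lists were chosen with earlier results known and the fit reuses the 4 h libraries, which favours such a shift. Levels in LPS alone also differed between the times. At 24 h Mx1 measured 161, 194 and 138 in LPS, below its 4 h values, and Nos2 5702, 9661 and 6684, above its own. The part of these levels in the interactions was not tested. Several cytokine genes turned from lower at 4 h to higher at 24 h, such as Il1a (-2.24 and 1.0), Csf1 (-0.64 and 0.99) and Lif (-1.17 and 1.20), each called at both times and in the interaction (limma adjusted p = 0.000642, 3.32e-05 and 0.000184). Sterol synthesis and cell division genes, with 0 and 1 called at 4 h, were lower at 24 h in 15 of 15 and 16 of 19. Without LPS_DMF replicate 3 of the 24 h group, 1266 interactions were called.

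**Figure D5:**
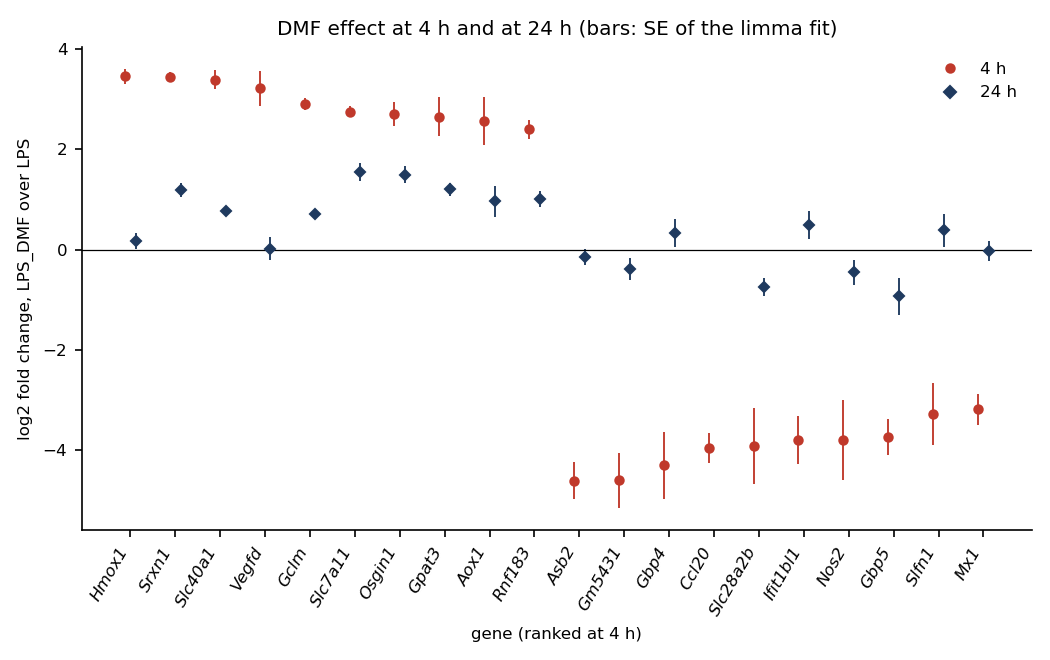
Log2 fold change in LPS_DMF over LPS (vertical axis) at 4 h (circles) and 24 h (diamonds) for the 20 genes ranked at 4 h, with bars of 1 SE from limma, n = 3 per group. The 24 h values lie closer to 0 in all 19 genes that have both, for example -4.62 and -0.15 for Asb2. The genes were chosen by their 4 h values, which favours a 24 h value closer to 0. Ccl20 has no 24 h point because it was not tested in that table.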

How the data were processed

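Poly(A) RNA of BV-2 cells was sequenced by the authors, and the comparison described here used 6 of the 36 libraries, 3 of LPS_DMF and 3 of LPS at 4 h. Per the study's methods and the submitters' processing notes, reads were trimmed with Cutadapt 4.4 and Trimmomatic 0.39, checked with FastQC 0.12.1, aligned to GRCm39 with HISAT2 2.2.1 against an Ensembl annotation and counted per gene with HTSeq 2.0.3. The strand setting of the counting is not given in the sources used here, so reads of overlapping or antisense genes may be mixed. The values the authors deposited are a normalized signal per gene and library, the read count divided by the DESeq2 1.40.2 size factor within each table of 6 libraries (R 4.3.1). All 445688 values of the libraries used came back as whole reads within 0.01 read once multiplied by a size factor. The tables also hold the authors' fold changes, standard errors, test statistics, p-values and regulation calls, which were not used.

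Genes with at least 10 normalized counts in 3 of the 6 libraries were tested with limma 3.58.1 (R 4.3.3) on log2(normalized count + 1), with a trended variance prior and Benjamini-Hochberg adjustment over all genes tested, and called at an adjusted p below 0.05. The same fit was used for the comparisons with MMF, vehicle and 24 h, and an interaction over 12 libraries tested the difference between the times. Only the limma fit of LPS_DMF against LPS at 4 h was tested on simulated counts, drawn independently for each library with a fixed dispersion. The simulation held no variation shared between same-numbered libraries. edgeR 4.0.16 and DESeq2 1.42.0 were run on the recovered reads as alternatives, besides other pseudocounts, filters, scalings and libraries left out. Intervals are 95% intervals of limma.

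Same-numbered LPS and LPS_DMF libraries deviated together from their group means at both times. The correlations at 4 h were 0.169, 0.463 and 0.352 over 9845 genes for replicates 1, 2 and 3. At 24 h they were 0.337, 0.514 and 0.225. But LPS replicate 1 at 4 h correlated better with LPS_DMF replicate 3 (0.309) than with LPS_DMF replicate 1. The numbers were therefore read only as a hint of pairing, and the main fits did not pair the samples. The labels do not say what the number marks, and a fit with the number as a block was an alternative.

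The gene lists (23 lists, 352 genes), the members and the tests were chosen with earlier results of these data known. Named were the 10 largest rises and 10 largest falls among called genes with a mean of at least 50 normalized counts in the higher group and libraries that did not overlap, and members of the lists. List members that are missing from the table, such as Cxcl9, were not analysed here. Gene positions and promoters were read from a GRCm39 genome with GENCODE annotation. Of the genes tested, 11366 of 11371 were matched to a promoter. Some genes are not reported here.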

Additional observations from a re-analysis of the deposited data

Results flagged for a closer look

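For 19 of the 20 genes with the largest changes at 4 h, the interaction of DMF with time was called (limma over 12 libraries, adjusted p below 0.05). Ccl20 is counted among the 19, with the limit given below. The value given for each gene is the log2 fold change of LPS_DMF over LPS at 24 h minus that at 4 h. Among genes that rose at 4 h it was -3.31 for Hmox1, -3.23 for Vegfd, -2.64 for Slc40a1, -2.28 for Srxn1 and -2.21 for Gclm. Smaller differences were found for Gpat3 (-1.46), Rnf183 (-1.40), Osgin1 (-1.23) and Slc7a11 (-1.22). Among genes that fell at 4 h the difference was 4.65 for Gbp4, 4.48 for Asb2, 4.30 for Ifit1bl1 and 4.25 for Gm5431. It was 3.67 for Slfn1, 3.34 for Nos2, 3.20 for Slc28a2b, 3.15 for Mx1 and 2.81 for Gbp5. For Ccl20 the fit gave 4.81, but Ccl20 had only 1.15 to 13.1 normalized counts in the 24 h libraries, with 1 of 6 at 10 or more, and entered the fit through its 4 h values, so nothing is read from it about 24 h. The genes were chosen by their 4 h values, so a value nearer 0 at 24 h is favoured by the choice.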

How the results depend on the processing

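Of 84 alternative values of the gene counts, 61 stayed within 1.5 times the main count and 23 did not, and no direction of a ranked gene reversed. The main count of 1257 genes was 2246 with all 18 libraries of the 4 h groups in 1 fit and 409 with a log2 fold change above 1 required as well. Under the latter rule 266 genes differed between DMF and MMF, 459 between LPS_DMF and DMSO, 323 between LPS_DMF and LPS at 24 h and 577 between the times. With a replicate block the counts were 1714 at 4 h, 4566 at 24 h and 1740 between DMF and MMF. For DMF and MMF the same-numbered samples share only a number (correlations of 0.278, 0.621 and 0.042), and LPS_DMF replicate 3 correlated best with LPS_MMF replicate 1 (0.280). The block changed the call of none of the 20 ranked genes, and the calls of list members it changed among the genes named are given with them. Leaving out 1 library gave 597 to 1286 genes at 4 h, 310 to 1234 between DMF and MMF, 1387 to 2707 against DMSO, 1352 to 3357 at 24 h and 1266 to 2139 between the times. With no fold limit on the 24 h list, 356 of its 1376 tested genes fell at 4 h (25.9%). The cause of these shifts was not tested, beyond the stricter rule or the smaller sample that an alternative applies. All 20 ranked genes were called by edgeR and DESeq2 and with pseudocounts of 0.5 and 5. Groups of 3 libraries limit what could be called, the vehicle of the cells with LPS alone is not stated, and low genes carry few reads.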

Other observations

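The genes tested were almost all protein-coding (11305 of 11371). Among the others, Ighm, an immunoglobulin constant region gene, was lower with DMF (log2 fold change -0.68, limma adjusted p = 0.0029) and the microRNA gene Mir23a, at 1.96 to 20.2 normalized counts, was higher (1.78, limma adjusted p = 0.0397). Both were chosen after their values were seen.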
